A study of Rattus norvegicus with 48 samples.

Results

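The enzymes of ketone body utilization examined here are the 5 genes Bdh1, Bdh2, Acat1, Acat2 and Aacs. They were taken by symbol and matched to Ensembl identifiers through the supplementary tables of the study. All 5 were found among the 32624 features listed in the count files, and all 5 were among the 13050 genes for which none of the 12 samples lacked reads. RNA was sequenced from cerebral endothelial cells (CECs), the cells that line brain capillaries and form the blood-brain barrier, taken from the cortex of male Wistar-Han rats. The rats were fed ad libitum (AL, 0 days of fast) or had food withdrawn for 1 day (F1), 2 days (F2) or 3 days (F3), with free access to water in every group. Each of the 4 groups had 3 samples, named i, j and k, from independent experiments in which cortices of several rats were pooled. A sample is therefore a pool of animals, and the spread between samples is not the spread between single rats. The cells were depleted of CD11b+ microglia and then sorted on CD31. The comparisons ask whether these cells express the genes for using β-hydroxybutyrate and acetoacetate, and whether fasting changed their transcripts.

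Ketone bodies are made by the liver when fatty acids are the main fuel and reach the brain across the blood-brain barrier through monocarboxylate transporters. Inside mitochondria, the dehydrogenase Bdh1 turns β-hydroxybutyrate into acetoacetate, the transferase Oxct1 activates acetoacetate to acetoacetyl-CoA, and the thiolase Acat1 splits this into acetyl-CoA for the tricarboxylic acid cycle. In the cytosol, Aacs activates acetoacetate directly and Acat2 joins acetyl-CoA units into acetoacetyl-CoA, the entry to sterol synthesis. Bdh2 is a cytosolic dehydrogenase of the short-chain family for which a role in siderophore synthesis has also been described. Oxct1 and the enzymes of ketone body synthesis were not analysed here.

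Transcripts of all 5 genes were detected in all 12 samples, at low to moderate read numbers. Acat1 (ENSRNOG00000007862) had 882 to 1178 reads per sample, Aacs (ENSRNOG00000000967) 384 to 554, Acat2 (ENSRNOG00000019189) 192 to 400 and Bdh1 (ENSRNOG00000001736) 220 to 378. Bdh2 (ENSRNOG00000014490) was close to the limit of the data, with 10 to 25 reads per sample. Together the 5 genes took 84.8 CPM (counts per 1000000 assigned reads). These read numbers are not corrected for transcript length, so the genes were not ranked against one another. The change between groups was small for most of them, and of 15 tests against AL (5 genes at 3 times) 1 passed the threshold of 0.05 on the adjusted p of edgeR's quasi-likelihood test. That gene was Acat2, whose transcript changed by -32.7% in F3 relative to AL rats. Of all genes tested, 6.56% passed the same threshold in F1, 0.858% in F2 and 12% in F3 rats.

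**Figure D1:**
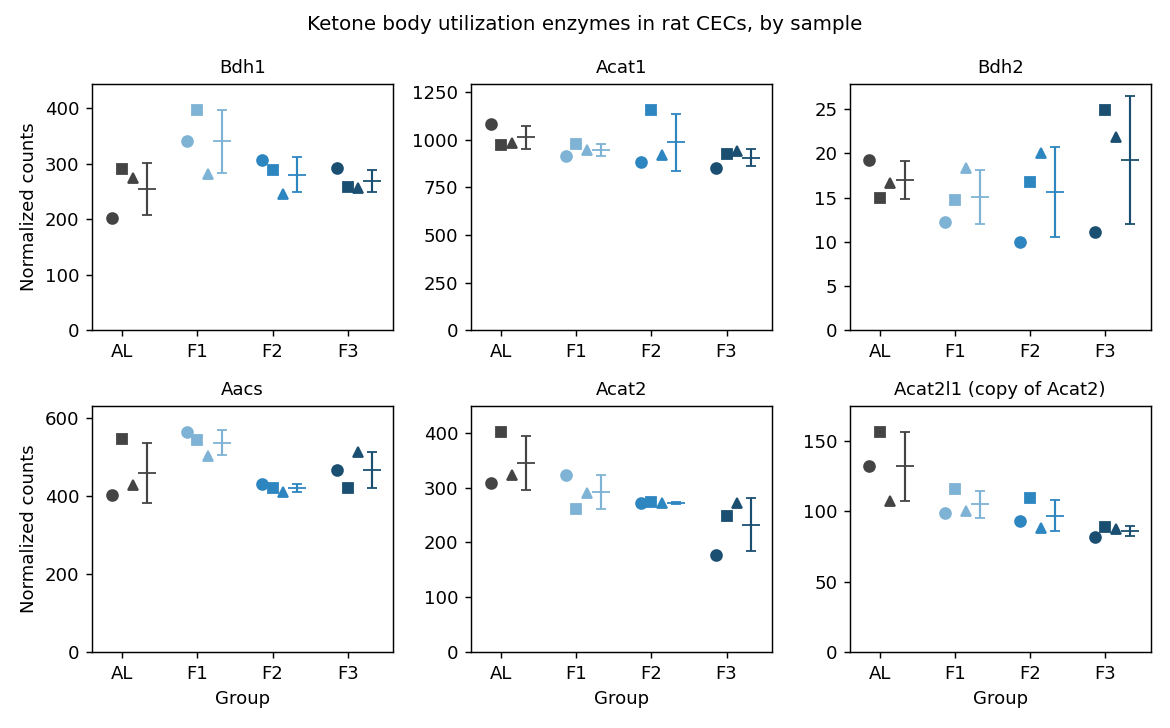
Normalized counts (y axis, from 0) of each gene in the 4 groups (x axis), with sample i as a circle, j as a square and k as a triangle, and the group mean with its SD beside them. The 3 F3 samples of Acat2 lie at 178 to 271, below the 3 AL samples at 309 to 401, whereas the samples of Bdh1 and Bdh2 overlap with AL in every fasted group. F3 and AL samples did not overlap for 35.6% of all genes tested.

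Of the whole data set, samples had 20718644 to 25960874 assigned reads, and the values are normalized counts, which are counts scaled to a common library size by the TMM method. Pecam1, which encodes the sorting antigen CD31, had between 31655 and 38791 normalized counts in every sample. It was highest in F1 samples, at 35876 to 38791, with AL samples at 31655 to 35586 and F2 samples at 31872 to 32294. F1 samples did not overlap with AL for 28.7% of all genes tested, and with F2 for 21.8%. The 5 endothelial markers with an identifier (Pecam1, Abcb1a, Abcg2, Slc2a1 and Slco1a4, of 10 in the list) summed to 470748 to 515978 in AL samples and to 566991 to 620702 in fasted samples. The 6 microglial markers (C1qa, C1qb, C1qc, Ccl3, Ccl4 and Aif1, of 9) summed to 56.7 to 134 in any sample. Aldoc of astrocytes (1 of 7) ranged from 1826 to 2155 in AL samples and from 1545 to 1588 in F3 samples. It had 1702 to 2277 in F1 and 1529 to 2239 in F2 samples, both overlapping with AL. Abcc9 and Anpep of pericytes (2 of 7) summed to 1473 to 4508 over all samples. Acta2 of smooth muscle cells (1 of 4) had 126 to 366, and Alas2 of red blood cells (1 of 3) had 36.1 to 110. None of these markers was at 0 over all samples. Markers of neurons, oligodendrocytes and fibroblasts were not analysed here. The part of these cell types in the results that follow was not tested.

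Bdh1, the mitochondrial β-hydroxybutyrate dehydrogenase that opens the pathway, had its highest group mean after 1 day of fast. AL samples had 202, 274 and 290 normalized counts, and F1 samples had 282, 342 and 397. F2 samples had 245, 289 and 307, and F3 samples had 257, 258 and 292. The lowest F1 sample lay below the highest AL sample, so the groups overlapped, and 4 of the 6 F2 and F3 samples lay within the range of the AL samples. The mean of F1 rats was 33.4% above that of AL rats (LFC 0.42, standard error 0.15, 95% confidence interval 0.09 to 0.75). This did not pass adjustment over all genes (unadjusted p = 0.0172, adjusted p = 0.134), and in 15 alternative settings the lowest adjusted p was 0.0784. In F2 rats the LFC was 0.14 (adjusted p = 0.760) and in F3 rats it was 0.08 (adjusted p = 0.811). For F3 the 95% confidence interval of the change ran from -16.2% to 32.8%. It holds for this gene taken alone, and changes outside it are not excluded. As bulk measurements, all values here cannot tell fewer cells of a type from less RNA per cell.

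Acat1, the mitochondrial acetoacetyl-CoA thiolase that also acts in isoleucine breakdown, varied least between samples. The highest of the 12 samples was 1.35 times the lowest, close to the 1.4 times of Aacs, against 2.48 times for Bdh2. AL samples had 973, 982 and 1084 normalized counts and F1 samples 918, 947 and 980. F2 samples had 884, 921 and 1157 and F3 samples 855, 924 and 941. All 3 F3 samples lay below all 3 AL samples, as was the case in either direction for 35.6% of all genes tested. The LFC was -0.16 ± 0.10 (standard error) in F3 rats (adjusted p = 0.327), -0.10 in F1 rats (adjusted p = 0.628) and -0.04 in F2 rats (adjusted p = 0.907). The 95% confidence interval for F3 ran from -22.4% to 3.2%, the narrowest of the intervals for the 5 genes in that comparison. Neither mitochondrial enzyme was called in any comparison.

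Bdh2 could not be measured closely enough for a modest change to be seen. AL samples had 15.0, 16.7 and 19.3 normalized counts and F1 samples 12.2, 14.7 and 18.3. F2 samples had 10, 16.8 and 20 and F3 samples 11.1, 21.8 and 24.9. Every fasted group overlapped with AL, and the F3 samples spanned the widest range. The reads of the 3 samples summed to 51 in AL (exact 95% Poisson interval 38.0 to 67.1) and to 59 in F3 rats (44.9 to 76.1). These intervals cover counting error only. Within groups the coefficient of variation was 27.6%, close to the 25.3% that counting alone gives at these read numbers, whereas it was 8.64% against 3.23% for Acat1. The LFC was 0.17 ± 0.35 (standard error) in F3 rats (adjusted p = 0.815), with an interval from -33% to 88.9%. This interval holds for the gene taken alone, and changes outside it are not excluded.

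Aacs, the cytosolic acetoacetyl-CoA synthetase that feeds acetoacetate into lipid synthesis, was highest in F1 and lowest in F2 rats by group mean. AL samples had 403, 427 and 546 normalized counts and F1 samples 501, 543 and 563. F2 samples had 409, 419 and 429, and F3 samples 421, 466 and 513. The 3 F1 samples lay above all 3 F2 samples, and 21.8% of all genes tested separated in that comparison. From F1 to F2 the LFC was -0.35 (standard error 0.11, 95% confidence interval -0.60 to -0.11), and the gene did not pass adjustment (unadjusted p = 0.00753, adjusted p = 0.128). Against AL the LFC was 0.22 in F1 (adjusted p = 0.283), -0.13 in F2 (adjusted p = 0.683) and 0.03 in F3 rats (adjusted p = 0.919). Sample AL j, at 546, was the sample of AL rats that reached the F1 range, and without it the LFC in F1 was 0.37 (adjusted p = 0.0562), whereas without AL sample i it was 0.14.

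Acat2, the cytosolic thiolase at the entry to sterol synthesis, had lower group means the longer the fast. AL samples had 309, 323 and 401 normalized counts (mean 345 ± 49.6, SD, n = 3) and F1 samples 261, 290 and 323 (291 ± 31.3). F2 samples had 271, 272 and 274 (272 ± 1.96) and F3 samples 178, 248 and 271 (232 ± 48.3). The highest F2 and F3 samples lay below the lowest AL sample, whereas F1 samples overlapped with AL. Of all genes tested, 15.5% in F2 and 35.6% in F3 rats had no overlap with AL, in either direction. After 3 days of fast the transcript fell (LFC -0.57, standard error 0.15, 95% confidence interval -0.89 to -0.25, adjusted p = 0.0237). The interval corresponds to a change between -46.1% and -15.9%. In F2 rats the LFC was -0.34 (unadjusted p = 0.0382, adjusted p = 0.351) and in F1 rats it was -0.24 (adjusted p = 0.394). Without AL sample j these were -0.22 and -0.12. Neighbouring groups in this order did not differ beyond their spread, with LFC -0.10 from F1 to F2 (adjusted p = 0.790) and -0.23 from F2 to F3 (adjusted p = 0.398).

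As the gene that was called, Acat2 is shown here with the 250 bases before its start site, and the window of Acat1 is given for comparison as the thiolase that was not called. Both come from RefSeq on build GRCr8 and are written 5′ to 3′ on the strand of the gene, Acat2 from chr1:50100590-50100839 on the plus strand and Acat1 from chr8:62905043-62905292 on the minus strand. The count files use Rnor_6.0, and no coordinate was carried between the builds. Capitals mark CCAAT (the CCAAT box), GGGCGG (the GC box, bound by Sp factors) and AGGTCA (a nuclear receptor half-site) on either strand.
Acat2: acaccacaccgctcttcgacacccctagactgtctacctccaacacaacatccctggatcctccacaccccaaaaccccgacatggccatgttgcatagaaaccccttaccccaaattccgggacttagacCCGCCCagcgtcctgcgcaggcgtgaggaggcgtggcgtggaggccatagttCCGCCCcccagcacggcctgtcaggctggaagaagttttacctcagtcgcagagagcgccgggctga
Acat1: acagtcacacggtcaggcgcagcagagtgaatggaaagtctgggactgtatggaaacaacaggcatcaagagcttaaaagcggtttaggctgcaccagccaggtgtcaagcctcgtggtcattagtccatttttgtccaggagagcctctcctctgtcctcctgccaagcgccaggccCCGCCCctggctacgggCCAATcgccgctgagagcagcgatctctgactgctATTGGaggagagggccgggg
The Acat2 window holds the GC box at 2 places and no CCAAT, and the Acat1 window holds 1 GC box and CCAAT at 2 places. All 5 genes had a window, of which 3 held the GC box (Bdh1, Acat1 and Acat2), 1 held CCAAT (Acat1) and 0 held AGGTCA. Of 33469 windows of the same length, 30.5% held GGGCGG, 34.0% held CCAAT and 14.1% held AGGTCA. A match describes these letters only, and the absence of one says nothing about the factor.

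The call of Acat2 rested on 2 samples at the ends of the range. Without AL sample j, the highest, the LFC was -0.45 (adjusted p = 0.101), and without F3 sample i, the lowest, it was -0.41 (adjusted p = 0.102). The call was kept in 14 of 16 alternatives, with the LFC between -0.69 and -0.41 and the adjusted p between 0.00597 and 0.102. The joint test of the 4 groups did not call Acat2 with edgeR (adjusted p = 0.0960) and called it with DESeq2 (adjusted p = 0.0361). Over all genes this test called 1321 with edgeR and 2090 with DESeq2. In F3 samples the endothelial marker sum was higher and Aldoc was lower than in AL samples, as given above. Of all genes tested, 35.6% had no overlap between F3 and AL samples. The sum includes the transporter genes Slc2a1 and Slco1a4, whose expression the study reported as changed by fasting. Their part in the sum was not tested. The sorting marker Pecam1 was at 33089 ± 2171 in AL and 33891 ± 767 in F3 samples (SD, n = 3), and these ranges overlapped.

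**Figure D2:**
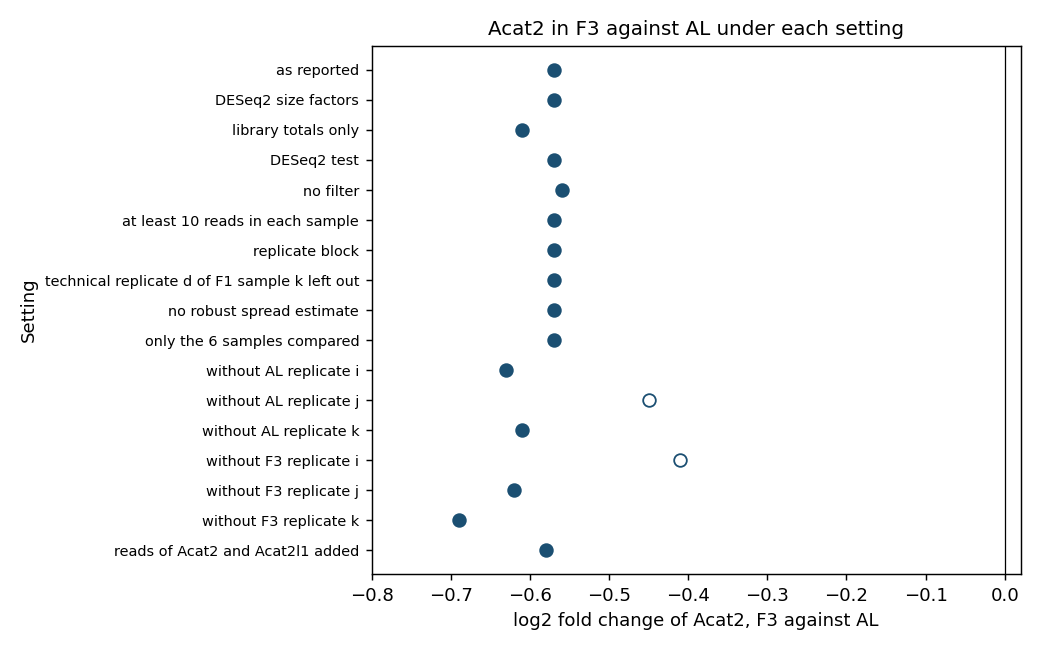
LFC of Acat2 in F3 against AL rats (x axis) as reported and in each of the 16 alternatives (y axis), with filled points where the adjusted p was at most 0.05 and open points where it was not. All points lie between -0.69 and -0.41, and the 2 open points are those without AL sample j and without F3 sample i.

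Acat2l1 (ENSRNOG00000013975), which is not one of the 5 genes, was taken by its symbol as a near copy of Acat2. Their sequences were not compared. The authors removed reads that matched more than 1 place. Reads from any identical stretches of the pair would therefore be missing from both, and the level of each is uncertain. Acat2l1 had 107, 132 and 156 normalized counts in AL and 81.7, 87.4 and 88.5 in F3 samples. It too fell at day 3 (LFC -0.62 with a standard error of 0.16, adjusted p = 0.0240). All F3 samples lay below all AL samples, and 35.6% of all genes tested separated in that comparison. This call was kept in 10 of 15 alternatives, and of the 6 that left out 1 sample of these groups it was kept without AL sample k alone (adjusted p = 0.0146), with the other 5 between 0.0552 and 0.102. With the reads of Acat2 and Acat2l1 added, a setting chosen after seeing the data, the LFC in F3 rats was -0.58 (adjusted p = 0.00876). Whether Acat2l1 fell independently of Acat2 was not tested. The strand setting of the counting was not given in the sources used here, so that reads of overlapping transcripts on the other strand could be included.

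Set against AL, 1 of the 5 genes was called in F3 rats, where 12% of all 13050 genes tested were called and 5.77% were called and lower. None of the 5 was called by edgeR or by DESeq2 in F1 (6.56% of all genes called by edgeR) or in F2 rats (0.858%). Without adjustment, 1 of the 5 had p under 0.05 in F1 rats (Bdh1) and 1 in F2 and in F3 rats (Acat2 in both), beside 20.6%, 12.8% and 26% of all genes. Between neighbouring times edgeR and DESeq2 called none, with 1.43% of all genes called by edgeR in F2 against F1 and 5.94% in F3 against F2. DESeq2 gave no adjusted p for Bdh2 in F3 against F2 (unadjusted p = 0.494), which was counted as not called. At an unadjusted p under 0.05, 1 of the 5 passed in F2 against F1 (Aacs, beside 17.3% of all genes) and 0 in F3 against F2 (22% of all genes). In the joint test edgeR called 0 of the 5, with 2 under an unadjusted p of 0.05 (Acat2 and Aacs), against 10.1% of all genes called. DESeq2 called 1 of the 5, and 2090 of all genes where edgeR called 1321. The samples of the 2 groups did not overlap for 0 of the 5 genes in F1 (28.7% of all genes), for 1 in F2 (Acat2, 15.5% of all genes), and for 2 in F3 rats (Acat1 and Acat2, 35.6% of all genes). In F3 against F2 this was so for 0 of the 5 (26.8% of all genes). The median LFC of the 5 genes was -0.10 in F1, -0.12 in F2 and 0.03 in F3 rats, beside 0.00, -0.01 and -0.01 over all genes. The 3 comparisons with fed rats share the same 3 AL samples.

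**Figure D3:**
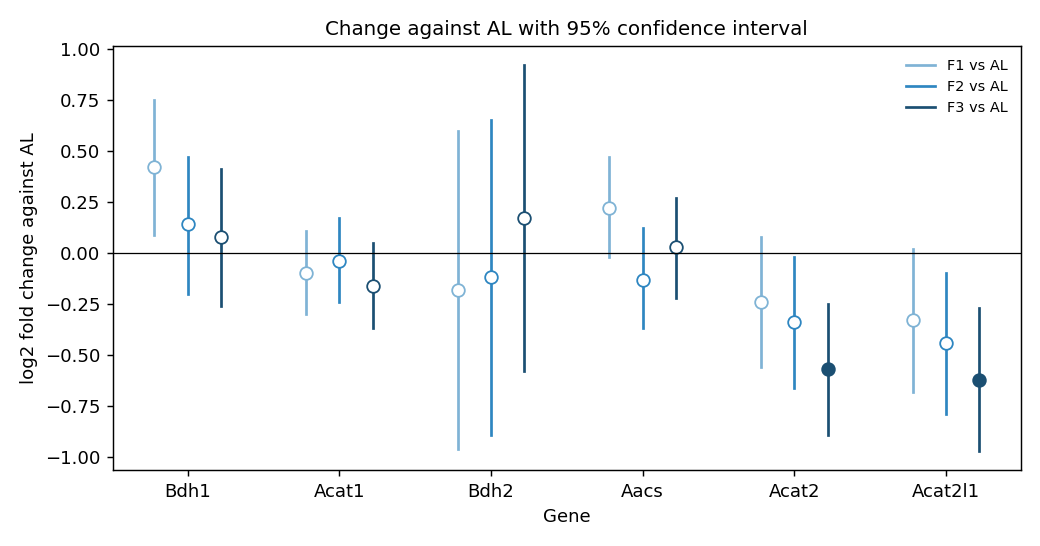
LFC against AL rats (y axis) of the 5 genes and of Acat2l1 (x axis) after 1, 2 and 3 days of fast, with 95% confidence intervals as vertical lines and filled points where the adjusted p was at most 0.05. The filled points are Acat2 at -0.57 and Acat2l1 at -0.62, both in F3, and the intervals of Bdh2 are the widest.

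The thiolases of the mitochondrion and the cytosol were also compared within samples, where depth and transcript length cancel between groups. The ratio of Acat1 to Acat2 reads was 2.42, 3.04 and 3.51 in AL samples and 3.47, 3.73 and 4.80 in F3 samples. Its group means were 2.99 ± 0.542 in AL, 3.29 ± 0.462 in F1, 3.62 ± 0.516 in F2 and 4.0 ± 0.702 in F3 rats (SD, n = 3). The F3 and AL samples overlapped by a small margin, with F3 at 1.34 times AL (two-sided exact permutation test p = 0.200, adjusted over 3 comparisons p = 0.450). With the reads of the copy Acat2l1 added to Acat2, the ratio was 1.74, 2.28 and 2.46 in AL and 2.63, 2.75 and 3.29 in F3 samples, without overlap, and F3 was again at 1.34 times AL (two-sided exact permutation test p = 0.1, adjusted over 3 comparisons p = 0.300). With 3 samples against 3 the smallest p possible is 0.1, so that neither test could pass 0.05, and whether the thiolases changed unequally was left undecided by them. Both ratios were chosen after seeing the data.

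Slc16a1, which encodes the monocarboxylate transporter that carries ketone bodies across the barrier, rose at each time, and Bsg, which encodes its chaperone basigin, was not called. Slc16a1 had 11620, 13395 and 16911 normalized counts in AL samples and 31256, 32858 and 36341 in F2 samples. These did not overlap, as was the case for 15.5% of all genes tested. Its LFC was 0.56 in F1 (adjusted p = 0.0276), 1.26 in F2 (adjusted p = 0.00203) and 0.79 in F3 rats (adjusted p = 0.00220). The F3 call was kept in 15 of 15 alternatives, the F2 call in 14 (lost at adjusted p = 0.0617 with only the 6 samples compared) and the F1 call in 9. The F1 call was lost without AL sample j (adjusted p = 0.0854), AL sample k (0.0946), F1 sample i (0.0592) or F1 sample k (0.108), with library totals (0.0581) and with only the 6 samples compared (0.0911). Bsg had LFC 0.06, 0.15 and -0.05 in F1, F2 and F3 rats (adjusted p = 0.794, 0.609 and 0.821). Whether the change of the carrier differed from that of the 5 enzymes was not tested.

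**Figure D4:**
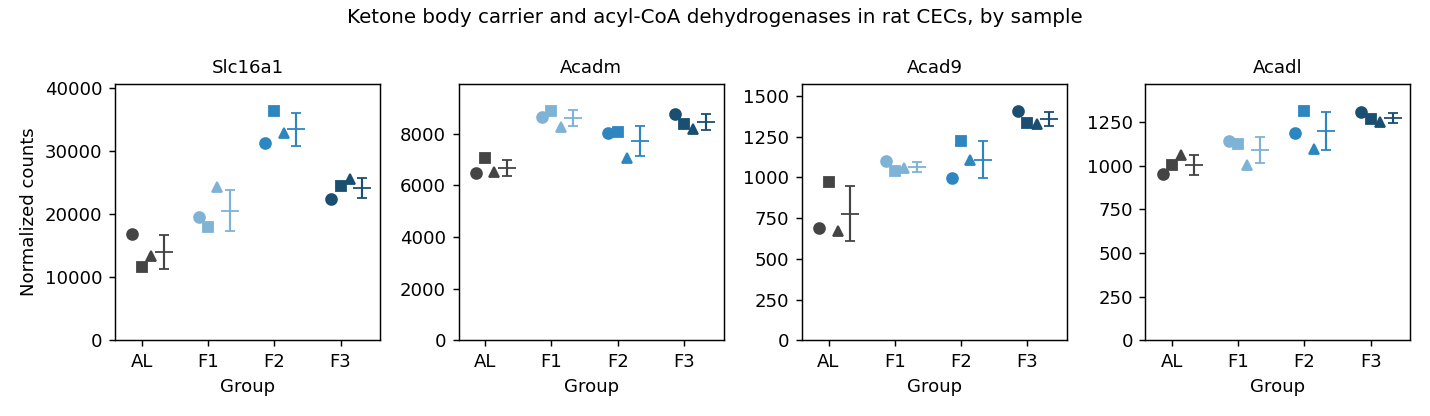
Normalized counts (y axis, from 0) of Slc16a1 and of the acyl-CoA dehydrogenases Acadm, Acad9 and Acadl in the 4 groups (x axis), with samples i, j and k as circle, square and triangle and the group mean with its SD. The F3 samples of all 4 genes lie above their AL samples, and Slc16a1 is highest in F2 rats, at 31256 to 36341. F3 and AL samples did not overlap for 35.6% of all genes tested.

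Genes of the neighbouring pathways came from 7 lists with 94 genes, of which 23 could be matched to an identifier and were tested, and the lists are therefore described only in part. Of the 16 listed genes of mitochondrial fatty acid oxidation, which supplies acetyl-CoA without ketone bodies, 6 were tested, mostly acyl-CoA dehydrogenases. The counts and median LFC given here describe these 6 genes and not the whole pathway. Of the 6, edgeR called 2 as higher in F1 (beside 6.56% of all genes called in either direction), 0 in F2 (0.858%) and 3 as higher in F3 rats (12%), and 0 as lower. DESeq2 called 3, 2 and 3 of them. The list's median LFC was 0.25, 0.30 and 0.31 in F1, F2 and F3 rats. Acad9, an acyl-CoA dehydrogenase that also helps to assemble respiratory complex I, had 668, 690 and 970 normalized counts in AL and 1331, 1334 and 1407 in F3 samples (LFC 0.81, adjusted p = 0.000796). Acadm, the medium-chain enzyme, rose in F1 (LFC 0.36, adjusted p = 0.0120) and in F3 rats (LFC 0.34, adjusted p = 0.0101). Acadl, the long-chain enzyme, rose in F3 rats (LFC 0.34, adjusted p = 0.0146), and Acad9 also passed in F1 rats (LFC 0.46, adjusted p = 0.0390).

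Acad9 in F3 was called in 15 of 15 alternatives. The other calls of these dehydrogenases were lost without single samples, while their LFC stayed close, at 0.31 to 0.35 for Acadm and Acadl and at 0.36 to 0.47 for Acad9 in F1. Acadm lost its call without F3 sample i in F3 (adjusted p = 0.0546) and without F1 sample j (0.0648) or AL sample i (0.05 after rounding, just above the threshold) in F1. Acadl lost it without F3 sample i (0.0655) or AL sample i (0.0574). Acad9 in F1 lost it without AL sample i (0.146), AL sample k (0.130) or any 1 F1 sample (0.0872 to 0.112), with library totals (0.0520) and with only the 6 samples compared (0.0722).

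In the lists of branched-chain amino acid breakdown and of acetyl-CoA supply, edgeR called no gene against AL. Of 8 tested genes of branched-chain amino acid breakdown, the pathway in which Acat1 also acts, 0 passed against AL with edgeR. DESeq2 called 1 in F1, 1 in F2 and 0 in F3 rats, and the list medians were 0.04, 0.08 and -0.05. In F3 against F2 edgeR called 1 of the 8 as lower (beside 5.94% of all genes called). In the joint test it called 1 (10.1% of all genes). Of 6 tested genes of acetyl-CoA supply and fatty acid synthesis (Acly, Acss1, Acss2, Acss3, Acaca and Acacb), 0 passed, with medians of -0.04, -0.06 and -0.08. The genes of sterol synthesis downstream of Acat2 were not analysed here.

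Over the 12 samples, Pearson's r between pairs of the 5 genes on log2 CPM ran from -0.589 for Bdh1 with Bdh2 to 0.659 for Bdh1 with Aacs, and it was 0.393 for Acat1 with Acat2. Bdh2 had 10 to 25 reads per sample, and its part of these values is the least certain. They describe 12 samples that share group means and library preparation, and carry no test.

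For each gene the 3 most alike patterns among the genes with a symbol and a mean of at least 100 normalized counts are given as a description. Symbols were at hand for 2023 of the 13050 genes tested, mostly those early in the alphabet, so that closest here means closest within this part of the genes. Acat1 was closest to Atp5o (r = 0.921) and Atp5g3 (r = 0.870), which encode subunits of the mitochondrial ATP synthase, with AY172581.9 between them (r = 0.907). Aacs was closest to Pecam1 (r = 0.918), followed by Abcd4 (r = 0.867) and Anxa7 (r = 0.826). Bdh1 was closest to Slc27a1 (r = 0.829), which encodes a fatty acid transport protein, then to Ccdc130 (r = 0.802) and Atp13a1 (r = 0.775). Acat2 was closest to Alg6 (r = 0.881), AABR07030086.2 (r = 0.838) and Ap3d1 (r = 0.829), and its copy Acat2l1 came at rank 12 of 1254 (r = 0.748). Bdh2 was closest to Ccdc120 (r = 0.778), Bak1 (r = 0.765) and AY172581.24 (r = 0.693). Each r is over 12 samples that share their preparation, and the closest of 1254 or 1255 genes is high by its choice.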

How the data were processed

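RNA was measured in 12 samples of sorted rat CECs, 3 per group, with 4 technical replicates each. The authors filtered reads by length and quality, mapped them to the Ensembl version 91 rat genome (Rnor_6.0 per the labels) using STAR, discarded reads with more than 1 match and counted reads on exons with HTSeq 0.5.3. The deposited values are raw counts per gene. Here the 4 technical replicates were summed. Technical replicate d of F1 sample k has conflicting labels, was kept in F1 by its title, and was left out in an alternative.

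Genes lacking reads in any sample were left out. The other 13050 were tested with edgeR 4.0.16 under R 4.3.3 (TMM, glmQLFit with a robust spread estimate, glmQLFTest), in 1 model of 4 group means, with Benjamini-Hochberg adjustment over all genes and a threshold of 0.05. Intervals are at 95% for each gene taken alone and are not adjusted for the number of tests. Standard errors were derived from the LFC and the F statistic of the test. The robust estimate was set after the data were examined, and an alternative leaves it out. The script was tested on simulated counts. Log2 CPM values used a prior count of 2. Ratios were compared with scipy 1.17.1. The alternatives were DESeq2 1.42.0 and its size factors, library totals, no filter, at least 10 reads in each sample, the sample letter as a block, only the 6 samples compared, and each sample left out. Named genes were the 5 enzymes, Slc16a1 and Bsg, list genes called against AL (at most 4 per list), and the 3 genes closest in pattern to each enzyme. Acat2l1 was added as the near copy of Acat2, judged by its symbol alone. The 6 genes of acetyl-CoA supply and fatty acid synthesis, of which none was called, are named after their values were seen. The result of 1 list is not reported here. The 5 genes and all lists were chosen with earlier results of these data known. Symbols came from the supplementary tables of the study and matched 2023 of the genes tested. Coordinates of the genes on Rnor_6.0 were not used here. The authors' fold changes were not used.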

Additional observations from a re-analysis of the deposited data

How the results depend on the processing

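The number of the 5 enzymes called did not change in any alternative at day 1 or day 2 against AL, or between neighbouring times (0 each). For F3 against AL it was 0 to 1 with 1 sample left out. In the joint test DESeq2 called 1 (2090 of all genes) where edgeR called 0 (1321 of all genes). No enzyme other than Acat2 was called in any alternative. Of 376 recomputed changes of the 5 genes, 2 lost their call (both Acat2) and 18 changed sign, all with adjusted p of at least 0.677. These were Aacs in F3 against AL with library totals (-0.02) and 17 with 1 sample left out, whose LFC ranges were -0.01 to 0.24 (Bdh1, F2), -0.34 to 0.11 (Bdh2, F2), -0.17 to 0.04 (Acat1, F2), -0.21 to 0.02 (Aacs, F2), -0.06 to 0.18 (Bdh1, F3), -0.06 to 0.45 (Bdh2, F3) and -0.05 to 0.17 (Aacs, F3) against AL, -0.16 to 0.29 (Bdh2) and -0.07 to 0.13 (Acat1) for F2 against F1, and -0.15 to 0.01 (Bdh1) and -0.20 to 0.01 (Acat1) for F3 against F2. For Acat2 in F3 the range was -0.69 to -0.41. The cause of these changes was not tested.

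Over all genes, leaving out 1 sample moved the calls from 856 to 308 to 766 (F1 against AL), from 112 to 35 to 162 (F2), from 1572 to 792 to 1271 (F3), from 186 to 0 to 139 (F2 against F1), and for F3 against F2 from 775 to 164 to 693, and from 1321 to 739 to 1784 (joint test). DESeq2 called 359 (F2 against AL), 616 (from F1 to F2), 1242 (from F2 to F3) and 2090 (joint test). With only the 6 samples compared, the calls were 0 for F2 against AL, 56 from F1 to F2 and 262 from F2 to F3. DESeq2 called 2 genes of fatty acid oxidation in F2, 1 of branched-chain amino acid breakdown in F1 and in F2 against AL, and 1 carrier in F3 against F2, where edgeR called 0.

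With the sample letter as a block, 1 of the 5 enzymes was called in F3 (Acat2, adjusted p = 0.0320) and 0 in the other comparisons, and over all genes the block moved the calls of F2 against F1 to 108 and changed no other count by more than 1.5 times. Deviations of samples with the same letter correlated at -0.017 to 0.139, over 0.1 in 2 of 18 pairs. Samples with different letters were not compared in this way, so whether the letters pair the samples was not decided. Read numbers of 10 to 25 limit Bdh2.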
